A study of Mus musculus with 6 samples.

Results

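The genes described here encode the eukaryotic initiation factor complex eIF4F, its relatives and the proteins that repress it. They are Eif4e, Eif4e2 and Eif4e3 (cap binding), Eif4g2 and Eif4g3 (scaffolds), Eif4a1, Eif4a2 and Eif4b (helicase and cofactor), and Eif4ebp1 and Eif4ebp2 (repressors). They were chosen by name, with earlier results of these data known, and all 10 were measured among 19937 genes. Where a symbol had several probe sets, the brightest over the 6 arrays stood for the gene. Eif4g1, which encodes the principal eIF4G scaffold, had no probe set annotated with its symbol alone and was not analysed here.

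In eIF4F the cap-binding protein eIF4E holds the 5′ cap of an mRNA, the scaffold eIF4G joins it to the ribosome through other initiation factors, and the RNA helicase eIF4A, helped by eIF4B, unwinds the leader. The 4E-binding proteins 4E-BP1 and 4E-BP2 occupy the surface of eIF4E that eIF4G uses, and the kinase mTOR releases them by phosphorylation. The compound 4EGI-1 was selected to displace eIF4G from eIF4E.

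The samples were pooled polysome fractions, the part of a sucrose gradient where mRNAs carry several ribosomes, from clone #483 of a T-ALL, a leukaemia of immature T cells, in mice of the C57BL6 strain. Treated cells received 100 µM 4EGI-1 for 2 h (3 arrays). Control cells were titled untreated (3 arrays), although the treatment protocol names the solvent DMSO for the cells without 4EGI-1. All 6 arrays come from 1 clone and carry no other treatment difference in the labels. The comparison asks how the polysomal level of these mRNAs differed after 4EGI-1. Polysomal RNA alone was profiled, so a change in the amount of an mRNA and a change in its share on polysomes cannot be told apart, nor can fewer cells and less RNA per cell.

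Values are log2 signals, and a difference of 1 is a doubling of signal. They are relative within an array, and levels of different genes are not compared. Because the processing equalises the arrays, a loss of polysomal RNA common to all genes would not show. Higher and lower are thus relative to the other genes. The median signal per array was 6.38 to 6.43, and having only 6 arrays limits the precision. Across genes, the correlation was 0.996 to 0.997 within groups and 0.988 to 0.990 between them. T-lineage markers fitted the labelled cell type: 14 of 16 were measured, and all 14 lay above the table's median signal, with a mean of 10.32 to 10.33 in untreated and 10.12 to 10.16 in 4EGI-1 arrays. Of these markers 6 were lower and 1 higher with 4EGI-1, beside 11.5% of all genes lower and 11.5% higher. Of the measured markers of other cells, 1 of 4 for B cells, 1 of 5 for myeloid cells, 1 of 2 for erythroid cells and 3 of 5 for stromal or endothelial cells (Pecam1, Col1a1 and Col1a2) reached that median. Limma called 0 of these 16 (0 at an unadjusted p under 0.05), beside 22.9% of all genes. Many of them lay below that median, unlike the T-lineage markers, so these counts are not matched for brightness.

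Of the 10 genes, 2 were higher with 4EGI-1, 4 were lower and 4 did not pass the test (limma, Benjamini-Hochberg adjusted p under 0.05 over all genes). The 3 cap-binding genes Eif4e, Eif4e2 and Eif4e3 all fell, though the call of Eif4e3 was lost when any 1 of 4 arrays was left out. The scaffold gene Eif4g3 rose, and the repressor genes went opposite ways, with Eif4ebp1 higher and Eif4ebp2 lower. The helicase genes and Eif4b did not pass. Among all genes 22.9% passed the test, 11.5% higher and 11.5% lower, so many genes beside these moved with the treatment. The groups did not overlap in 8 of the 10, against 37.9% of all genes. All 10 lay at or above the table's median signal, and most genes that passed did too. Of the 2286 higher and 2287 lower genes, 1908 and 2087 also passed when only genes above that median were tested. The shares over all genes include dimmer genes, and the shares among genes this bright were not counted here. The median log2 difference of the 10 was -0.10, beside -0.03 over all genes.

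**Figure D1:**
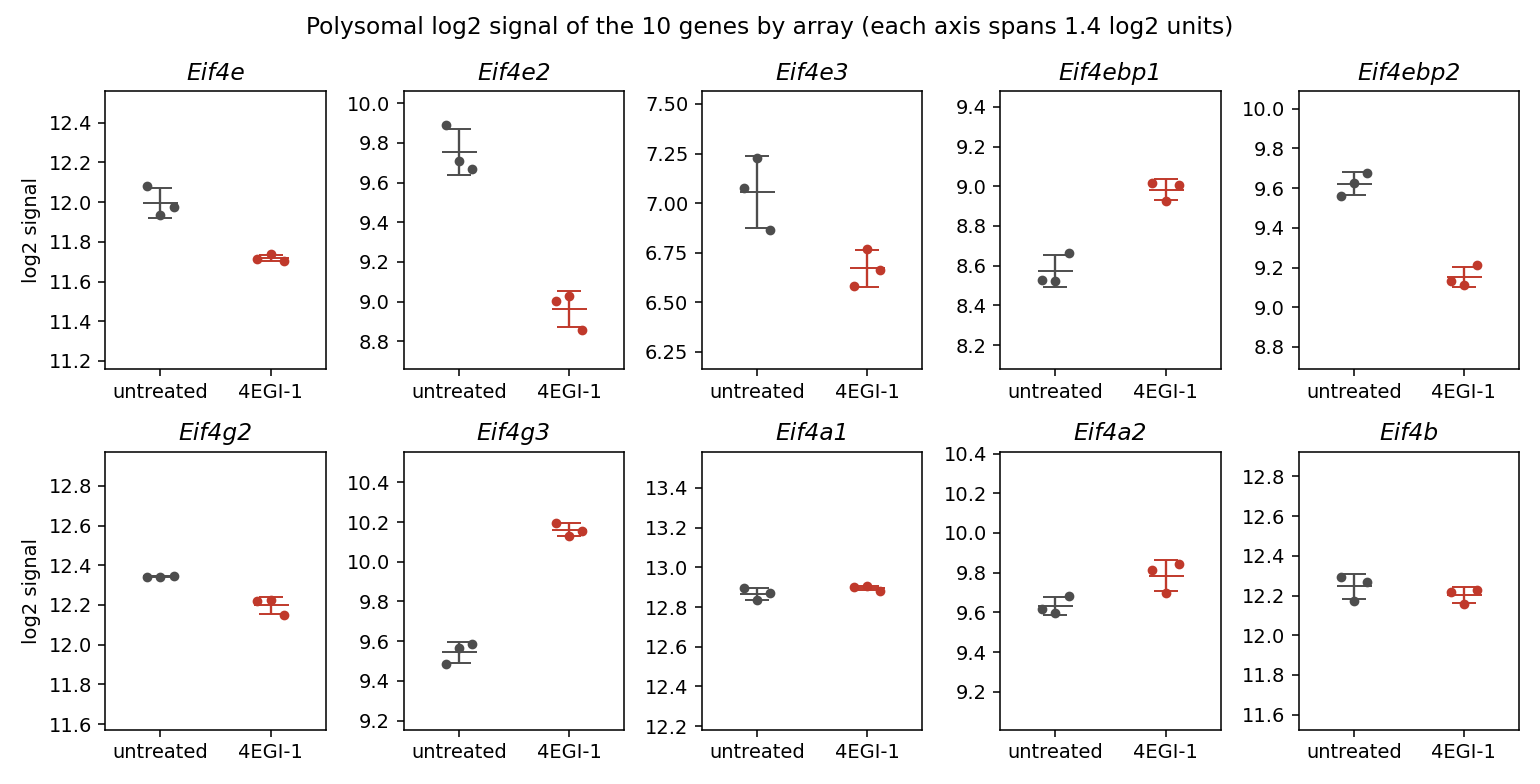
Log2 polysomal signal of each of the 10 genes in each array; points are arrays, bars the mean and SD of 3 arrays, and each vertical axis spans the same range. Untreated and 4EGI-1 arrays are apart for 8 genes and overlap for Eif4a1 and Eif4b.

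Promoter sequences are shown for the genes that changed, as the DNA from which these mRNAs start. RefSeq (build GRCm38.p6) gave an entry for 7 of the 10 genes, with 11 start sites in all. Of the 6 genes that changed, Eif4e, Eif4e2, Eif4ebp2 and Eif4g3 had an entry. Each line gives the 250 bases before the start site furthest downstream, 5′ to 3′ on the gene's strand, and capitals mark CACGTG, the E-box that Myc and its partner Max recognise.
Eif4e, chr3:138527018-138527267, plus strand: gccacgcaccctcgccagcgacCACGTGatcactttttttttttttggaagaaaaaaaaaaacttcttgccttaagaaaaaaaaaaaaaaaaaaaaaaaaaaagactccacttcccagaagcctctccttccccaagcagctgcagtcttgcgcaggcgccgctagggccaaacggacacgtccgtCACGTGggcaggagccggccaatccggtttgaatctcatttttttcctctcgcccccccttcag
Eif4e2, chr1:87213689-87213938, plus strand: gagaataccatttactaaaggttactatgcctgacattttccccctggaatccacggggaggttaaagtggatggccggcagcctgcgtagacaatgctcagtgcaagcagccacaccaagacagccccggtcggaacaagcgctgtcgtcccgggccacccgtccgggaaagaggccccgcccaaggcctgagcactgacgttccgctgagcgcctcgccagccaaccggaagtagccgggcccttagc
Eif4ebp2, chr10:61452670-61452919, minus strand: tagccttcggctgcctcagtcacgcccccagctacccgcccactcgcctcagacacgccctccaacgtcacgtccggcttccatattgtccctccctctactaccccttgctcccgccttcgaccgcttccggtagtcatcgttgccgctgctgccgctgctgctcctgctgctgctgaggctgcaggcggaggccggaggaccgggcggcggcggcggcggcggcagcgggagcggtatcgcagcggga
Eif4g3, chr4:137993206-137993455, plus strand: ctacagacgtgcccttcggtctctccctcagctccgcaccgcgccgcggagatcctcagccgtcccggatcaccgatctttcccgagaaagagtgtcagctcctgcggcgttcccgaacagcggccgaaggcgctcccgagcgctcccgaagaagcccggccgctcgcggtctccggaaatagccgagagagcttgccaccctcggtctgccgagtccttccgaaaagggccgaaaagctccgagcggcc
The window of Eif4e held CACGTG at 2 places, beginning 228 and 64 bases before the start. At least 1 CACGTG was in 6.02% of the 32851 windows of this length in the table, and 2 or more were in 0.429%. The word is its own reverse complement, so both strands are covered. The other Eif4e start had no match, and among the remaining genes Eif4a1 had 1, beginning 189 bases before its start. The word TGATGNAA, part of the element that the stress factor ATF4 binds, was searched on both strands. It was in 3.45% of all windows and in 0 of the 11 windows of these genes. No window was available for Eif4ebp1, Eif4e3 and Eif4g2. The windows of Eif4e2 largely cover the same bases, as do those of Eif4g3, so 0 of 11 says little. The words do not overlap in these windows. GC content was 48.8% in this Eif4e window and 70.0% in that of Eif4ebp2, beside a median of 52.4% over all windows. These matches describe sequence only, since the arrays do not measure promoters.

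Among the cap-binding genes, Eif4e2 showed the largest change of the 10. Eif4e2 encodes 4EHP, a relative of eIF4E that binds the cap without recruiting eIF4G and is known as a translational repressor. Its log2 signal was 9.89, 9.71 and 9.67 in untreated arrays and 9.00, 9.03 and 8.86 with 4EGI-1. Every treated array was below every untreated array by a margin wider than the range inside either group. Eif4e2 fell by 0.79 ± 0.08 on the log2 scale (SE, n = 3 each; limma adjusted p = 0.000342), to 0.578 times its untreated level. Only 2.27% of all genes had an absolute difference at least this large.

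Eif4e, the cap-binding subunit that 4EGI-1 acts on, fell by less. Its brightest probe set read 12.08, 11.93 and 11.97 in untreated arrays and 11.72, 11.74 and 11.70 with 4EGI-1. The treated arrays lay close together, with an SD of 0.02 beside 0.08 in untreated arrays, and all were below the lowest untreated array. The difference was -0.28 ± 0.06 (SE, n = 3 each; limma adjusted p = 0.0148), or 0.825 times the untreated level, a size met or passed by 20.5% of all genes.

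Eif4e is annotated on 3 probe sets, whose genomic positions were not checked. The probe set numbers of these genes mostly follow the order of their chromosome names. By that order the brightest Eif4e set, 10599855, lies outside the place of chromosome 3, while 10496485 and 10496490 fall in it. Whether 10599855 reads a related sequence elsewhere was not tested. The second brightest, 10496485, read 11.19, 11.10 and 11.02 in untreated arrays and 10.74, 10.82 and 10.81 with 4EGI-1. It also separated the groups, and with every probe set tested its difference was -0.31 ± 0.07 (SE; limma adjusted p = 0.0112). The dimmest, 10496490, whose annotation lists a single cDNA clone, read 6.81, 6.77 and 6.70 untreated and 6.55, 6.58 and 6.76 treated. Its groups overlapped through 4EGI-1 replicate 3, and its difference of -0.13 ± 0.08 did not pass (limma adjusted p = 0.296).

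**Figure D2:**
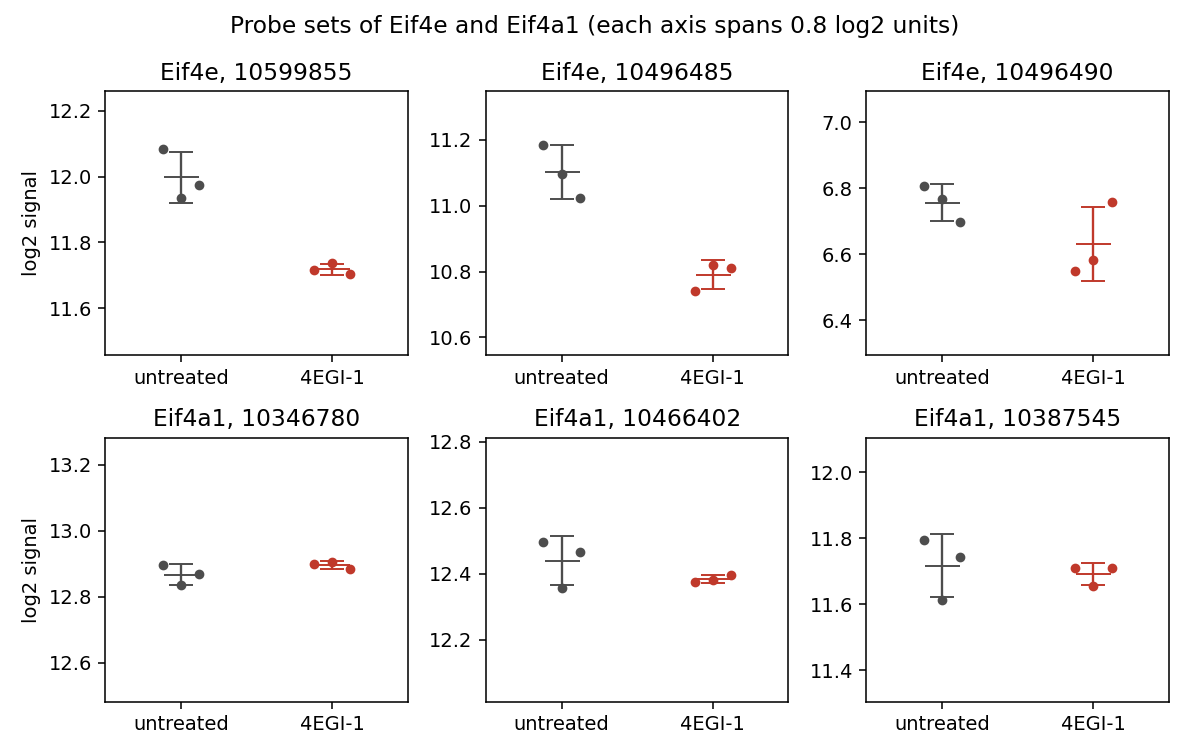
Log2 signal by array for the 3 probe sets of Eif4e (top) and the 3 of Eif4a1 (bottom); points are arrays and bars the mean and SD of 3 arrays. The brighter pair of Eif4e probe sets separates the groups, while the dimmest one and all of Eif4a1 overlap.

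Eif4e3 encodes another member of the cap-binding family, which lacks part of the usual cap contact. It read 7.07, 7.23 and 6.86 in untreated arrays and 6.58, 6.77 and 6.66 with 4EGI-1. The groups were apart by a narrow gap, between untreated replicate 3 and 4EGI-1 replicate 2, and the untreated SD of 0.18 was the widest among the 10 genes. Eif4e3 fell by 0.38 ± 0.10 (SE, n = 3 each; limma adjusted p = 0.0252). This call was lost when single arrays were left out, while the difference kept its sign. The limma adjusted p was 0.0813 and 0.0755 without untreated replicates 1 and 2, and 0.0791 and 0.0638 without 4EGI-1 replicates 1 and 3. Calls over all genes also fell without 1 array, from 2286 higher and 2287 lower to 1857 to 2082 higher and 1663 to 1836 lower.

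The 4E-BP genes moved in opposite directions. Eif4ebp1 encodes 4E-BP1, a repressor that competes with eIF4G for eIF4E and whose gene is a known target of ATF4. It read 8.53, 8.52 and 8.67 in untreated arrays and 9.02, 8.92 and 9.01 with 4EGI-1. All treated arrays were above all untreated ones, and Eif4ebp1 rose by 0.41 ± 0.07 (SE, n = 3 each; limma adjusted p = 0.00312), or 1.33-fold.

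Eif4ebp2 encodes 4E-BP2, which binds the same surface of eIF4E. It read 9.56, 9.63 and 9.68 in untreated arrays and 9.13, 9.11 and 9.21 with 4EGI-1. Here all treated arrays were below all untreated ones, with an SD of 0.06 in untreated and 0.05 in treated arrays. Eif4ebp2 fell by 0.47 ± 0.06 (SE, n = 3 each; limma adjusted p = 0.00123), to 0.722 times its untreated level.

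The scaffold genes also differed from each other. Eif4g3 encodes eIF4GII, a full-length scaffold that binds eIF4E. It read 9.48, 9.56 and 9.58 in untreated arrays and 10.20, 10.13 and 10.16 with 4EGI-1, so the groups were far apart relative to their spread. Eif4g3 rose by 0.62 ± 0.06 (SE, n = 3 each; limma adjusted p = 0.000281), or 1.53-fold, a size met or passed by 4.66% of all genes. It had the smallest adjusted p of the 10.

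Eif4g2 encodes DAP5, a shorter relative that lacks the eIF4E-binding part and supports initiation without it. It read 12.34, 12.34 and 12.35 in untreated arrays and 12.22, 12.23 and 12.15 with 4EGI-1. The groups did not overlap, but the difference was small, -0.15 ± 0.06 (SE, n = 3 each), and did not pass (limma adjusted p = 0.117). It passed when only genes above the table's median signal were tested (limma adjusted p = 0.0436) and with a trended robust prior (limma adjusted p = 0.00441), at the same difference.

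The helicase genes and the cofactor gene stayed within a narrow range. Eif4a1 encodes the main eIF4A helicase. Its brightest probe set read 12.90, 12.83 and 12.87 in untreated arrays and 12.90, 12.91 and 12.88 with 4EGI-1, and the groups overlapped. The difference was 0.03 ± 0.06 (SE, n = 3 each; limma adjusted p = 0.774), with a 95% interval of -0.10 to 0.16. The other probe sets of Eif4a1, 10466402 and 10387545, gave -0.06 ± 0.06 and -0.02 ± 0.07, and their groups overlapped too. The mean of the 3 gave -0.02, so no direction can be given for Eif4a1. Eif4a1 and Eif4a2 have closely related sequences, and the probe sequences were not used here, so signal shared between them is possible. By their numbers, the brightest set (10346780) and 10466402 also lie outside the place of chromosome 11, where Eif4a1 is. Whether they read related sequences elsewhere was not tested.

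Eif4a2 encodes the paralogous helicase. It read 9.62, 9.60 and 9.68 in untreated arrays and 9.81, 9.70 and 9.84 with 4EGI-1. The treated arrays were higher by a narrow gap, and the difference of 0.15 ± 0.07 (SE, n = 3 each) did not pass (limma adjusted p = 0.144; 95% interval 0.00 to 0.31). Eif4b, the helicase cofactor, read 12.29, 12.17 and 12.27 in untreated arrays and 12.22, 12.15 and 12.23 with 4EGI-1. Its groups overlapped and its difference was -0.04 ± 0.06 (SE; limma adjusted p = 0.683), with a 95% interval of -0.19 to 0.10, and the sign turned after quantile normalization. These intervals bound a change in either direction and do not show that the levels were equal.

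**Figure D3:**
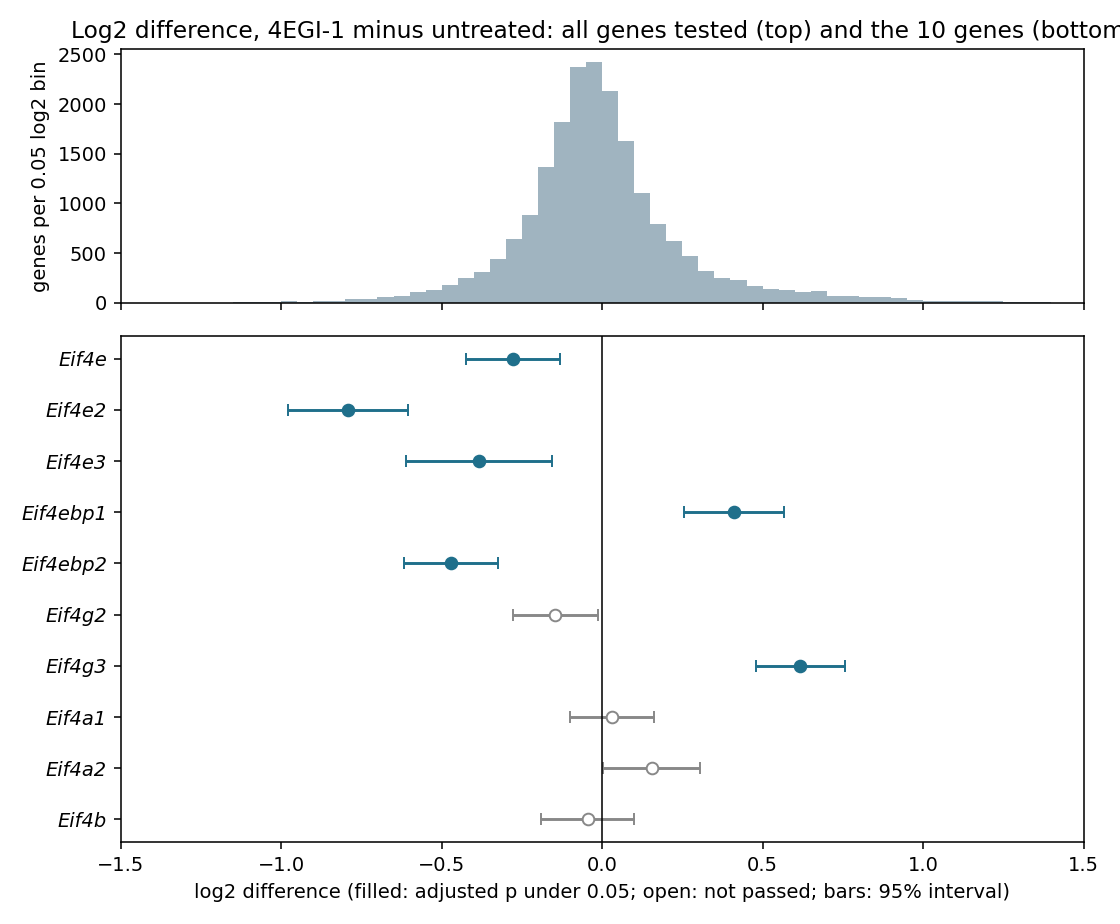
Log2 difference of 4EGI-1 minus untreated for all 19937 genes as a histogram (top) and for the 10 genes with 95% intervals (bottom); filled points passed the test and open points did not. Eif4e2 at -0.79 and Eif4g3 at 0.62 lie furthest from 0.

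Because a shift of a whole array cancels within it, the log2 ratio of one gene to another was compared array by array for 6 pairs. The height of such a ratio has no meaning across probe sets, while its change between groups does. The ratio of Eif4ebp1 to Eif4ebp2 was -1.03, -1.10 and -1.01 in untreated arrays and -0.12, -0.19 and -0.20 with 4EGI-1. Its change of 0.88 was the largest of the 6 and many times the SD of 0.05 within either group. The ratio of Eif4g2 to Eif4g3 was 2.86, 2.78 and 2.76 in untreated arrays and 2.02, 2.09 and 1.99 with 4EGI-1, a change of -0.76 with no overlap.

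The ratio of Eif4e to Eif4e2 was 2.19, 2.23 and 2.30 in untreated arrays and 2.71, 2.71 and 2.85 with 4EGI-1. It changed by 0.51, so Eif4e2 fell further than the brightest Eif4e probe set, 10599855, which may read a related sequence (not tested). The other Eif4e sets, at -0.31 and -0.13, also fell less than Eif4e2. Each ratio to Eif4e rests on 10599855. The ratio of Eif4ebp1 to Eif4e changed by 0.69, from -3.42 ± 0.12 to -2.74 ± 0.07 (SD, n = 3 each), without overlap. That of Eif4ebp2 to Eif4e changed by -0.19, from -2.37 ± 0.13 to -2.57 ± 0.07 (SD, n = 3 each), and the arrays overlapped. The ratio of Eif4a1 to Eif4a2 changed by -0.12 and also overlapped. With 3 arrays against 3 the exact two-sided permutation test cannot go below p = 0.1. In this permutation test the 4 pairs without overlap reached that value (adjusted p = 0.15 over the 6 pairs), and the others had an exact p of 0.2.

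**Figure D4:**
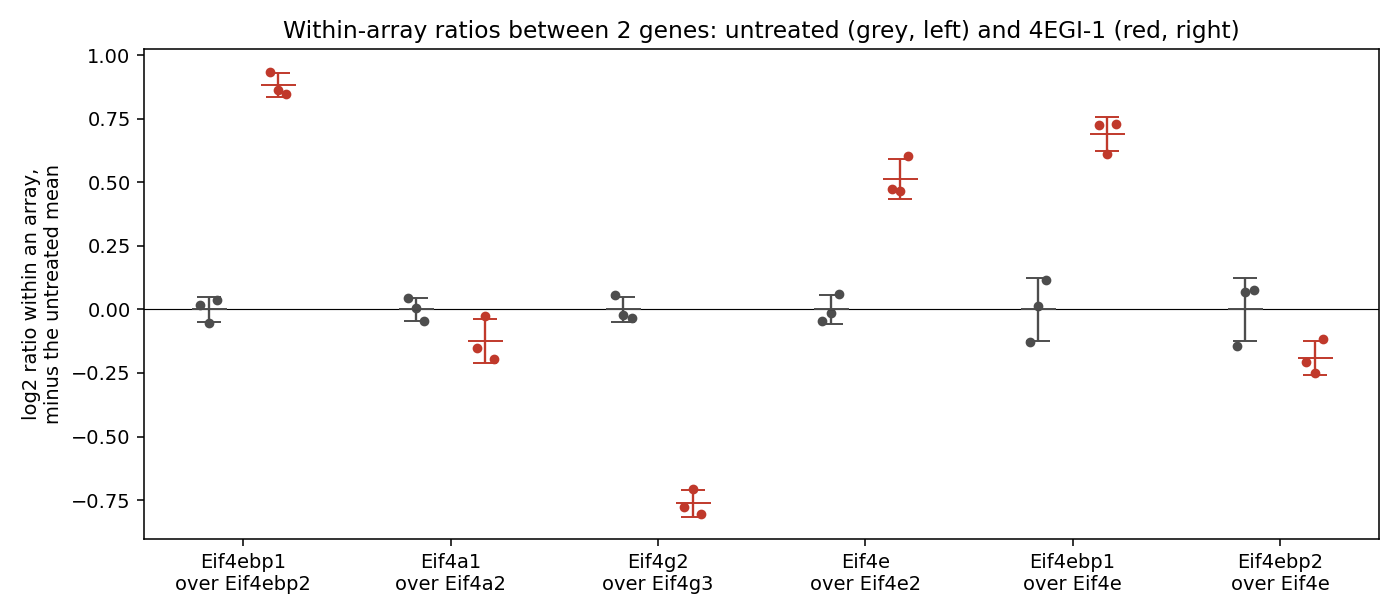
Log2 ratio between 2 genes within each array, minus the untreated mean of that ratio; points are arrays (grey untreated, red 4EGI-1) and bars the mean and SD of 3 arrays. The ratio of Eif4ebp1 to Eif4ebp2 rises by 0.88 and that of Eif4g2 to Eif4g3 falls to -0.76, while the pairs Eif4a1 to Eif4a2 and Eif4ebp2 to Eif4e overlap.

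Genes whose profile over the 6 arrays was most like that of the genes with the smallest adjusted p were found by the root mean square distance between log2 values centred on the untreated mean. For Eif4g3 the 5 nearest were Spg11, Blm, Kidins220, Rreb1 and Cpt1a, at distances of 0.0181 to 0.0232 and with differences of 0.60 to 0.63. For Eif4e2 they were Stc1, Slc44a1, Gas2l3, Sbf1 and Jaml, at larger distances of 0.0527 to 0.0730 and with differences of -0.82 to -0.74. The search itself picks genes with nearly the same difference, so these ranges follow from it. It is a description over 6 arrays, 3 untreated and 3 with 4EGI-1.

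Another 38 genes that act on or beside eIF4F were listed, also with earlier results of these data known. Of these, 32 were measured, of which 4 were higher, 7 lower and 21 did not pass, beside 11.5% of all genes higher and 11.5% lower. Their median log2 difference was -0.0029, beside -0.03 over all genes. The groups did not overlap in 21 of the 32, beside 37.9% of all genes. All 32 lay at or above the table's median signal, so the shares over all genes are not matched to them for brightness. Pabpc4, Cyfip1, Rps6kb1, Rps6ka1 and Eif4ebp3, like Eif4g1, had no probe set with their symbol alone.

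The remaining family genes gave no call. Of the 4 measured (Eif4e1b, Eif4h, Eif4a3 and Eif4enif1), limma called 0, beside 22.9% of all genes. Of these, 1, Eif4h, had an unadjusted p under 0.05. Eif4h, which encodes a cofactor of eIF4A related to eIF4B, read 10.45, 10.36 and 10.31 in untreated arrays and 10.17, 10.11 and 10.27 with 4EGI-1. Its groups were just apart and its difference was -0.19 ± 0.07 (SE; limma adjusted p = 0.0980). Like Eif4g2, it passed among genes above the table's median signal (limma adjusted p = 0.0325) and with a trended robust prior (limma adjusted p = 0.0186).

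Among 15 measured genes listed as partners of eIF4E, 4EHP, eIF4G or eIF4A, 3 were higher and 4 lower, beside 11.5% of all genes each way. The list also holds genes whose products act beside these factors rather than bind them, such as Dhx29, Paip2 and Paip2b. Gigyf2 encodes a partner of 4EHP in repression, and it rose while Eif4e2 fell. It read 9.52, 9.44 and 9.37 in untreated arrays and 9.89, 9.84 and 9.92 with 4EGI-1, a rise of 0.44 ± 0.07 (SE, n = 3 each; limma adjusted p = 0.00200). The genes of the other partners, Gigyf1 at 0.07 and Zfp598 at 0.02, did not pass. Dhx29, which encodes a helicase for structured leaders, rose by 0.67 ± 0.08, from 8.84 to 9.51 (limma adjusted p = 0.000503).

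Pdcd4 encodes an inhibitor that sequesters eIF4A. It fell by 0.30 ± 0.07 (SE), from 10.28 to 9.98, with a limma adjusted p of 0.0161, which was 0.0508 without untreated replicate 1. Genes of proteins that bind poly(A)-binding protein split. Paip1, whose product stimulates translation, fell by 0.31 ± 0.06 (limma adjusted p = 0.00831). The genes of the inhibitors Paip2 and Paip2b went opposite ways, with Paip2 at -0.23 ± 0.07 (limma adjusted p = 0.0414) and Paip2b at 0.27 ± 0.07 (limma adjusted p = 0.0276).

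The calls of Paip2 and Paip2b were each lost without several of the arrays, left out 1 at a time, while the differences kept their sign. Calls over all genes fell too when 1 array was left out. The adjusted p of Paip2 was 0.131 without untreated replicate 2, 0.109 without untreated replicate 3, and 0.0590, 0.0866 and 0.126 without 4EGI-1 replicates 1, 2 and 3. That of Paip2b was 0.0844 and 0.0724 without untreated replicates 1 and 3, and 0.0727 and 0.0841 without 4EGI-1 replicates 2 and 3. Lsm14a, which encodes a P-body protein, fell by 0.25 ± 0.06 (limma adjusted p = 0.0145), a value of 0.0525 without untreated replicate 3 and 0.0507 without 4EGI-1 replicate 3. Pabpc1 itself, the main poly(A)-binding protein gene, was at -0.09 and did not pass.

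Of 9 measured genes listed as acting on eIF4E, the 4E-BPs or eIF4B, 1 was higher and 2 lower, beside 11.5% of all genes each way. Mtor, the kinase that phosphorylates the 4E-BPs, read 7.81, 7.71 and 7.66 in untreated arrays and 8.62, 8.40 and 8.55 with 4EGI-1. Its treated arrays were all far above the untreated ones, a rise of 0.79 ± 0.08 (SE, n = 3 each; limma adjusted p = 0.000292). Its complex partner genes Rptor (0.09) and Mlst8 (0.00) did not pass.

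Mknk2, which encodes the eIF4E kinase MNK2, read 7.58, 7.77 and 7.59 in untreated arrays and 7.01, 7.04 and 6.92 with 4EGI-1. It fell by 0.66 ± 0.07 (SE, n = 3 each; limma adjusted p = 0.000543), while the other MNK gene, Mknk1, was at -0.02 ± 0.06 (limma adjusted p = 0.896). Klhl25, which encodes a ubiquitin ligase adaptor for unbound 4E-BP1, fell by 0.35 ± 0.08 (limma adjusted p = 0.0121).

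The last 4 genes were Ncbp1, Ncbp2 and Ncbp3, of the nuclear cap-binding proteins, and Ctif, whose product binds the nuclear complex rather than the cap. Ncbp2, the cap-contacting subunit of the nuclear cap-binding complex, read 10.73, 10.91 and 10.77 in untreated arrays and 10.30, 10.27 and 10.32 with 4EGI-1. It was lower in every treated array and fell by 0.51 ± 0.07 (SE, n = 3 each; limma adjusted p = 0.00111). Ncbp1, which encodes the larger subunit, was at -0.21 ± 0.08 and did not pass (limma adjusted p = 0.104), though it did under the same alternatives as Eif4h (limma adjusted p = 0.0346 and 0.0182). Ncbp3 was at 0.01 and Ctif at 0.12, and these did not pass either.

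**Figure D5:**
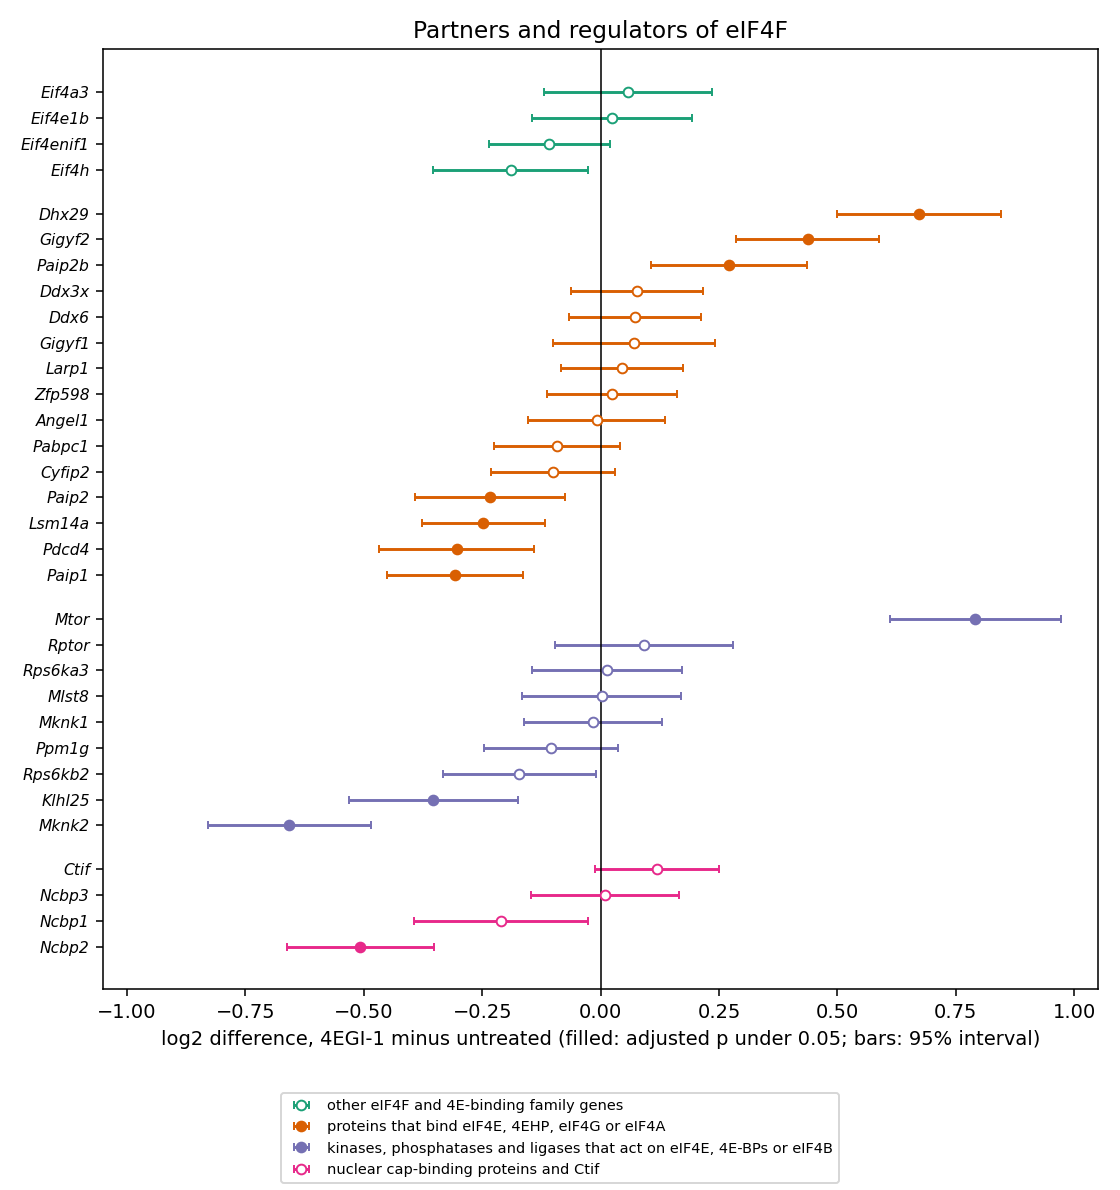
Log2 difference of 4EGI-1 minus untreated with its 95% interval for the 32 measured partners and regulators, grouped by role. Filled points passed the test. The group of binding proteins also holds genes whose products act beside these factors, such as Dhx29, Paip2 and Paip2b. Mtor at 0.79 and Dhx29 at 0.67 lie furthest to the right, and Mknk2 at -0.66 and Ncbp2 at -0.51 furthest to the left.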

How the data were processed

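Per the labels, RNA of pooled polysome fractions was amplified, fragmented, biotin-labelled and hybridised, 1 array per sample. The authors deposited a log2 signal for each probe set and array. The submitters' processing notes name RMA, which equalises the arrays, while its version and settings are not stated there. Of 34760 probe sets, 21640 had 1 gene symbol in the platform annotation, 1321 had several and were left unnamed, and 11799 were not listed. Symbols were updated by Entrez identifier (21553 matched). Groups came from the sample titles.

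Differences (4EGI-1 minus untreated) came from limma 3.58.1 (lmFit, eBayes) under R 4.3.3, run on all 19937 genes with no filter, Benjamini-Hochberg adjustment and a threshold of 0.05. SE denotes limma's moderated standard error, and tests are two-sided. The script was tested on simulated data. The genes and lists were chosen with earlier results of these data known. Named partners were those that passed and the 2 largest differences that did not. Alternatives were the replicate block, filters, all or averaged probe sets, 2 normalizations, another prior, array weights, a threshold of 0.01 and leaving out each array. The same alternatives counted over all genes were added after seeing the data. Replicate numbers were not treated as pairs.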

Additional observations from a re-analysis of the deposited data

How the results depend on the processing

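Eif4e, Eif4e2, Eif4ebp1, Eif4ebp2 and Eif4g3 kept their direction in all 16 alternatives, and of these only Eif4e missed a threshold, that of 0.01 (-0.28, limma adjusted p = 0.0148). Without single arrays the limma adjusted p of Eif4e ran from 0.0251 to 0.048, so its call stayed only just under 0.05. Eif4e3 missed the threshold of 0.01 too (-0.38, limma adjusted p = 0.0252), which left 2 genes lower, and without single arrays its difference ran from -0.48 to -0.30. Across the arrays left out in turn 3 to 4 of the 10 genes were lower and 2 higher. Eif4g2 passed when only genes above the table's median signal were tested and with a trended robust prior, at -0.15 in both. Eif4a1 turned to -0.0171 with the mean of its probe sets and Eif4b to 0.0004 after quantile normalization, neither near the threshold. The partner genes gave 3 lower at 0.01, and 5 to 6 lower and 3 to 4 higher without single arrays. They gave 10 lower when only genes above the table's median signal were tested and 9 lower with a trended robust prior. Lower calls over all genes moved likewise from 2287, to 1248, 1663 to 1836, 2804 and 2806 in these settings in turn. Higher calls over all genes went from 2286 to 1488, 1857 to 2082, 2339 and 2601. None of the 6 within-array ratios changed direction with averaged probe sets, with quantile normalization or without single arrays. Each moved by less than its SD pooled over both groups, though Eif4ebp2 to Eif4e reached -0.26 and Eif4a1 to Eif4a2 -0.17, moves larger than the SD of one of the groups.

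With the replicate block, 2 of the 10 genes were higher and 4 lower, as without it, and among partners Paip2 (-0.23, limma adjusted p = 0.0755) was lost. Arrays sharing a replicate number deviated together only weakly (correlations 0.0609, 0.107 and -0.0214), and 4 of 6 arrays correlated best with their own number. These values do not settle whether the numbers pair the samples, and the sample titles do not say. Over all genes the block gave 2097 higher and 1974 lower, beside 2286 and 2287. Centring the arrays also ended the call of Paip2 (limma adjusted p = 0.0542). The arrays' number limits the precision, and detection calls were not used here.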
